A study of Rattus norvegicus with 9 samples.

Results

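The genes described here encode the proteins of the cytosolic ribosome, measured in rat pancreatic islets, which hold the insulin-secreting beta cells and other endocrine cells. They were chosen by name: a gene entered where the array's annotation gave a probe set exactly 1 symbol, and that symbol was Rpsa, Rplp0, Rplp1, Rplp2 or began with Rpl or Rps and a digit. S6 kinases, Rps19bp1 and pseudogene symbols were left out. This gave 48 genes of the 14217 named on the array, 33 of the large (60S) and 15 of the small (40S) subunit. Each was read from 1 probe set, the one with the highest mean.

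The animals were adult male Wistar rats, 7 weeks old and weighing 225 to 250 g at the start, caged singly for 30 days. The standard group ate chow with 8% of its calories as fat, and the cafeteria group ate a cafeteria diet with 66%. Islet RNA was measured on Affymetrix Rat Genome 230 2.0 arrays, 4 in the standard and 5 in the cafeteria group, each labelled as a biological replicate, with no treatment or genetic change other than diet. Titles, source names and descriptions gave the groups used here, while a separate diet field contradicts them on 9 of 9 arrays; read by that field, every sign below would be reversed. Isolated islets hold several endocrine cell types together with vascular, immune and some exocrine cells, so each value is an average over them. The endocrine markers Ins1, Ins2, Iapp, Gcg, Sst and Ppy had group mean signals between 24082 and 44664.

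A ribosome translates messenger RNA into protein. Its small subunit decodes the message and its large subunit joins the amino acids, and each is built from ribosomal RNA and many small proteins needed in equal amounts. Most ribosomal protein messages begin with a terminal oligopyrimidine (TOP) tract, a C followed by a run of C and T, through which the growth kinase mTOR adjusts their translation as a group. In beta cells, insulin makes up much of the protein that ribosomes produce.

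A TOP-like start was looked for in RefSeq promoter windows (build GRCr8), each holding 250 bases before and 50 after the annotated start. It was called where a C within 5 bases of the start was followed by 4 or more bases that were all C or T. Windows were found for 41 of the 48 genes, and 20 of the 41 (48.8%) held the tract, against 5248 of 33469 windows of all genes (15.7%) and 15 of 65 windows of mitochondrial ribosomal proteins (23.1%). A window without it says only that these letters are not at the annotated start. The sequences below are of genes whose values are given in full, 50 bases before to 20 after the start, 5′ to 3′ on the gene's strand, with the tract in capitals. The first 4 hold a tract, and the last 2, of the small subunit, do not.
Rpl14: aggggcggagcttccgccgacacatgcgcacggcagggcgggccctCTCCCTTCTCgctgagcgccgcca
Rpl22: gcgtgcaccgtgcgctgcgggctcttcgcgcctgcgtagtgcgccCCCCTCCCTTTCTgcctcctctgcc
Rpl27a: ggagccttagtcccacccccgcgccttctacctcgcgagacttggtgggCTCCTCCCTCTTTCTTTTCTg
Rplp0: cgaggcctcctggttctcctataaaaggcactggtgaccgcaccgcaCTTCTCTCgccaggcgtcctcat
Rps6: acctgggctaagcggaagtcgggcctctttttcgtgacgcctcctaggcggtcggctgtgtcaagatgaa
Rps27l: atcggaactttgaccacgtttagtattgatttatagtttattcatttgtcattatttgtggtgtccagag
As counted here, the tract of Rpl27a ran for 20 bases and that of Rpl22 for 13, while those of Rpl14 and Rplp0 ran for 10 and 8. The count began no more than 5 bases before the start. In Rpl22 and Rpl14 further C and T bases stand directly before the capitals and were not counted. The windows shown lie at Rpl14 at chr8:129163570-129163639 (+ strand), Rpl22 at chr5:168117911-168117980 (+ strand), Rpl27a at chr1:172974523-172974592 (+ strand), Rplp0 at chr12:46718371-46718440 (- strand), Rps6 at chr5:106420521-106420590 (- strand) and Rps27l at chr8:76443608-76443677 (+ strand).

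The ribosomal protein genes differed little between the diets, and none passed the test. Signals were compared as log2(signal + 16), so each log2 fold is the mean of the cafeteria arrays minus that of the standard arrays on this scale. Of the 48 genes, 43 had a mean signal above the 40th percentile of all probe sets, about 91.1, and were tested. The 5 not tested were Rps13, Rpl28, Rpl30, Rpl39l1 and Rpl3l, whose chosen probe sets were dim. No gene of the 43 had an adjusted p under 0.05 by limma over all 18625 probe sets tested (0.0% of all), with 0.839 as the smallest value among them. With no adjustment, 1 gene had a p under 0.05 and a lower level, Rpl14 (2.79% of all probe sets tested), and 1 a higher level, Rps27l (3.01%). Together, 2 of 43 is 4.65%, beside 5.8% of all probe sets tested. The median log2 fold was -0.04, against -0.01 over all probe sets tested, and 41 of the 43 folds lay within 0.2 of 0.

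Most of the folds were slightly negative. In 28 of 43 genes (65.1%) the log2 fold was below 0, beside 51.9% of all probe sets tested. In the large subunit 18 of 29 were below 0, with a median of -0.04, and in the small subunit 10 of 14, with a median of -0.06. Over all 48 genes, dim ones included, 31 were below 0 and the median was again -0.04. That direction rested on single arrays: without cafeteria replicate 3, 17 of 43 were below 0 and the median was 0.02, and without standard replicate 1, 19 were below 0 and the median was 0.02. The members' standard errors were small, with a median of 0.12 against 0.18 over all probe sets tested.

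**Figure D1:**
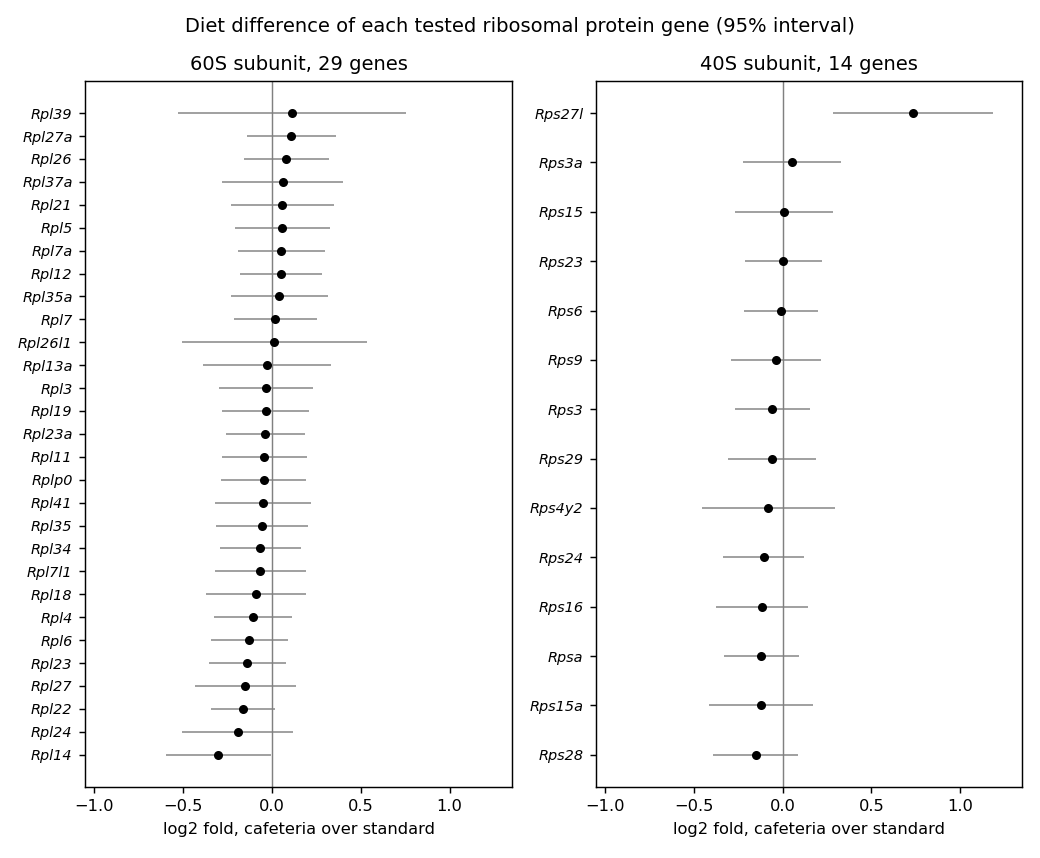
Log2 fold of cafeteria over standard (x axis) for the 43 tested ribosomal protein genes, 29 of the large and 14 of the small subunit, with limma's 95% interval; 4 standard and 5 cafeteria arrays. Rps27l, at 0.73, lies apart from the others, whose folds run from -0.30 (Rpl14) to 0.11 (Rpl39).

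The proteins of the large subunit include the genes with the lowest folds. Rpl14, a surface protein of that subunit, had signals of 7667, 6843, 6786 and 6095 on the standard arrays and 7200, 5552, 4145, 5654 and 5552 on the cafeteria arrays, in replicate order. In 4 of 5 cafeteria arrays the signal was below all standard arrays, while cafeteria replicate 1 lay within the standard range. The means were 6848 ± 643 (SD, n = 4) and 5621 ± 1082 (SD, n = 5), a difference of -17.9%. Its log2 fold was -0.30 ± 0.14 (SE; 95% interval -0.60 to -0.01), with an adjusted p of 0.839 by limma and an exact two-sided permutation p of 0.0635. Without cafeteria replicate 3 the log2 fold was -0.20, and a dim second probe set of the gene, not tested, had 25.9 ± 30.4 (SD, n = 4) and 51.3 ± 32.1 (SD, n = 5).

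Rpl22, an RNA-binding protein that the ribosome can do without, was the only tested member whose groups did not overlap. Its signals were 9285, 8711, 8126 and 8584 in standard islets and 8088, 7957, 7382, 7408 and 7916 in cafeteria islets. Each cafeteria array was below each standard array, by as little as 8088 against 8126. The means were 8676 ± 477 (SD, n = 4) and 7750 ± 330 (SD, n = 5), 10.7% apart, and the log2 fold was -0.16 ± 0.08 (SE; 95% interval -0.34 to 0.02). The exact two-sided permutation p was 0.0079, the smallest that 126 splits of 9 arrays can give. It restates that the groups do not overlap and was not adjusted for the number of genes. The adjusted p by limma over all probe sets was 0.839. Such a separation, lower in cafeteria islets, was found in 1 of 43 members and in 0.762% of all probe sets tested; the opposite one was found in no member and in 0.999% of all.

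Rpl23 and Rpl24, both on the face of the large subunit that meets the small one, had log2 folds of -0.14 ± 0.10 (SE) and -0.19 ± 0.14. The signals of Rpl24 were 7820, 7623, 7713 and 6492 on the standard arrays and 8501, 6816, 4657, 6640 and 6294 on the cafeteria arrays. Its highest and its lowest value were both in the cafeteria group. Without cafeteria replicate 3 the fold of Rpl24 was -0.08 and that of Rpl23 -0.09, and without cafeteria replicate 1 that of Rpl24 was -0.29. For Rpl23 the signals were 9767, 10751, 11110 and 10605 in standard islets and 11226, 10258, 8353, 9269 and 9081 in cafeteria islets, with the highest value on cafeteria replicate 1 and 3 cafeteria arrays below all standard arrays. Rpl6 had -0.13 ± 0.10, and Rpl4, which lines the tunnel through which the new protein leaves, had -0.11 ± 0.10. Leaving out cafeteria replicate 3 gave Rpl4 a fold of -0.05, leaving out standard replicate 1 gave -0.06, and leaving out both gave -0.00067. None of these passed (adjusted p by limma between 0.860 and 0.884).

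Among large-subunit genes with a positive fold, Rpl27a had signals of 25331, 19633, 16445 and 18782 in standard islets and 19697, 21387, 21540, 21253 and 23094 in cafeteria islets. The cafeteria values lay inside the standard range on all 5 arrays, and standard replicate 1 was the highest of the 9. The log2 fold was 0.11 ± 0.12 (SE; adjusted p = 0.898 by limma), and it was 0.23 without standard replicate 1 and 0.02 without standard replicate 3. Rpl26 had signals of 36206, 27936, 25105 and 24906 in standard islets and 29193, 30044, 28992, 30139 and 30950 in cafeteria islets; again standard replicate 1 was the highest array, and the cafeteria values lay within the standard range. Rpl26, Rpl7a and Rpl12 had 0.08, 0.05 and 0.05, with 95% intervals that all included 0. With standard replicate 1 left out, the fold of Rpl26 was 0.20; leaving out standard replicate 3 or 4 gave 0.03 or 0.02.

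Rpl5 and Rpl11 bind the 5S ribosomal RNA, and outside the ribosome they can restrain the p53 regulator Mdm2. The log2 fold of Rpl5 was 0.06 ± 0.12 (SE) and that of Rpl11 was -0.04 ± 0.11. The signals of Rpl5 were 32467, 24588, 20542 and 23633 in standard islets and 25519, 29088, 23488, 24918 and 27245 in cafeteria islets, and those of Rpl11 were 15294, 15884, 16507 and 16831 in standard islets and 18132, 16990, 12344, 16371 and 15043 in cafeteria islets. Both groups overlapped in each gene, and the lowest Rpl11 value was on cafeteria replicate 3. Rpl3, at the catalytic centre of the large subunit, had -0.03 ± 0.12. Rpl13a, which also silences inflammatory messages in macrophages, had -0.03 ± 0.17, with signals of 19194, 12415, 10067 and 12076 in standard islets and 12444, 14016, 11423, 10940 and 15721 in cafeteria islets. Its highest value was on standard replicate 1 and its lowest on standard replicate 3. All 4 intervals included 0 (adjusted p by limma between 0.960 and 0.989).

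Rplp0 anchors the stalk to which the translation factors bind, and it was the only stalk gene in the set. Its signals were 14618, 11843, 12089 and 11500 in standard islets and 12661, 13238, 9825, 11977 and 12988 in cafeteria islets. The groups overlapped, with the highest value on standard replicate 1 and the lowest on cafeteria replicate 3. The log2 fold was -0.05 ± 0.11 (SE; 95% interval -0.28 to 0.19; adjusted p = 0.962 by limma).

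In the small subunit, Rps6 is the target of the S6 kinases downstream of mTOR. Its signals were 20484, 18898, 15964 and 16068 in standard islets and 17644, 17952, 16374, 18251 and 18158 in cafeteria islets. The 5 cafeteria values lay within the standard range. The means were 17853 ± 2219 (SD, n = 4) and 17676 ± 764 (SD, n = 5), and the log2 fold was -0.01 ± 0.10 (SE; 95% interval -0.22 to 0.20; adjusted p = 0.996 by limma). Rps3, at the mouth of the messenger channel, had -0.06 ± 0.10, and Rpsa, also known as the laminin receptor, had -0.12 ± 0.10. Rpsa had signals of 11590, 10585, 10198 and 10054 in standard islets and 11133, 9707, 8300, 9936 and 9905 in cafeteria islets, and 4 of 5 cafeteria arrays were below all standard arrays. Its fold was -0.06 without cafeteria replicate 3 and -0.08 without standard replicate 1. The signals of Rps28 were 8773, 8003, 8145 and 8346 in standard islets and 8622, 8150, 5885, 7690 and 7369 in cafeteria islets, with the lowest on cafeteria replicate 3. Rps28 had a log2 fold of -0.15 ± 0.11, and -0.07 without cafeteria replicate 3. These 3 folds had adjusted p-values by limma between 0.860 and 0.948. Rps6, Rps3 and Rpl22 had the smallest SD over the 9 arrays.

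The largest difference was in Rps27l, a paralog of the small-subunit protein Rps27 and a known target of p53. Its signals were 403, 321, 195 and 284 in standard islets and 369, 448, 626, 578 and 496 in cafeteria islets. In 4 of 5 cafeteria arrays it was above all standard arrays, and cafeteria replicate 1 lay below standard replicate 1. The means were 301 ± 86.3 (SD, n = 4) and 503 ± 102 (SD, n = 5), a ratio of 1.67. The log2 fold was 0.73 ± 0.21 (SE; 95% interval 0.28 to 1.18), with an exact two-sided permutation p of 0.0238 and an adjusted p by limma of 0.839. Across the alternative settings it stayed between 0.55 and 0.88, and its lowest adjusted p was 0.380.

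The other tested paralogs did not share that difference in value. Rps4y2 had signals of 357 to 650.5 over the 9 arrays and a log2 fold of -0.08 ± 0.17 (SE), which leaving out cafeteria replicate 4 moved to -0.21 and leaving out cafeteria replicate 3 to -0.0030. Rpl7l1, a relative of Rpl7, had -0.07 ± 0.12 on its chosen probe set and 0.06 ± 0.13 on the other; the former was -0.0029 without cafeteria replicate 3 and -0.12 without standard replicate 1. Rpl26l1 was dim, with signals of 87.8 to 182, and had 0.01 ± 0.24. Rpl3l, which replaces Rpl3 in striated muscle, was not tested; it read 15.9 to 56.8 in standard islets and 5.68 to 96.1 in cafeteria islets. None of the 3 tested had an adjusted p below 0.950 by limma. Rpl39l1, by its symbol a relative of Rpl39 but not on the list of paralogs, was dim and not tested. Its log2 fold was 0.33, with signals of 28.8 to 127 in standard and 33.8 to 162 in cafeteria islets.

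**Figure D2:**
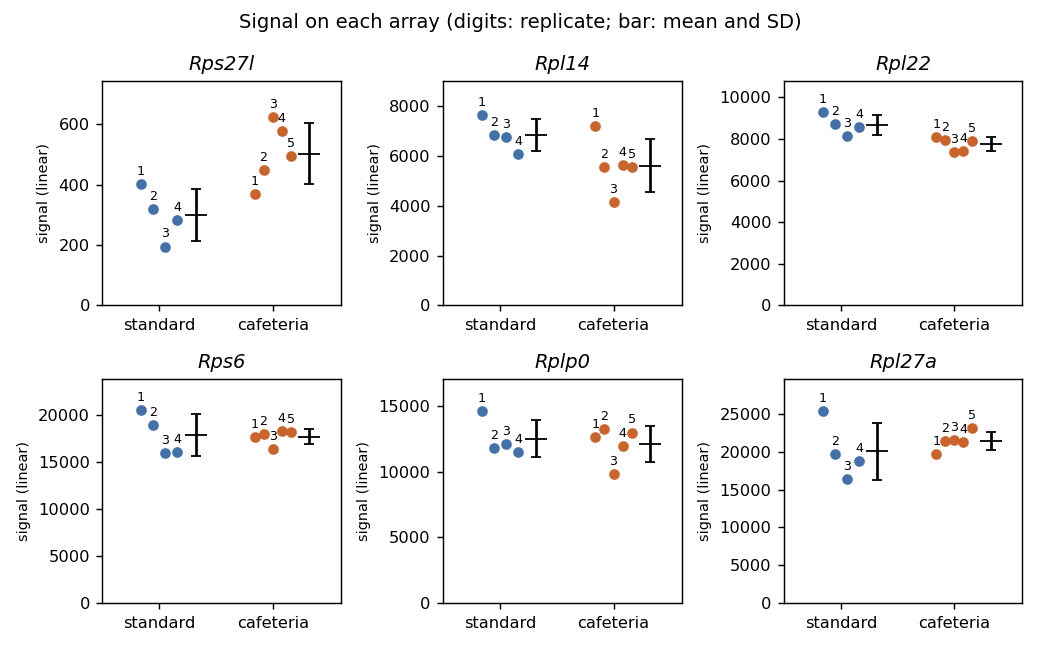
Linear signal (y axis, from 0) of 6 ribosomal protein genes on each array, 4 standard (blue) and 5 cafeteria (orange); digits are replicate numbers and bars the mean and SD. The Rps27l signal reads 195 to 403 in standard and 369 to 626 in cafeteria islets; only Rpl22 has groups that do not overlap, and standard replicate 1 is the highest standard array in all 6.

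The members varied together from array to array more than between the diets. For each array, the level of the group was taken as the median, over the 43 tested genes, of the log2 signal minus the gene's mean over the 9 arrays. It was 0.24, 0.00, -0.08 and -0.06 on standard replicates 1 to 4, and 0.08, 0.05, -0.26, -0.02 and 0.01 on cafeteria replicates 1 to 5. Standard replicate 1 was thus the highest and cafeteria replicate 3 the lowest array. The other 7 arrays lay between -0.08 and 0.08, with both groups in that range. The mean of these medians was 0.03 ± 0.15 (SD, n = 4) in standard and -0.03 ± 0.13 (SD, n = 5) in cafeteria islets, a difference smaller than either SD.

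**Figure D3:**
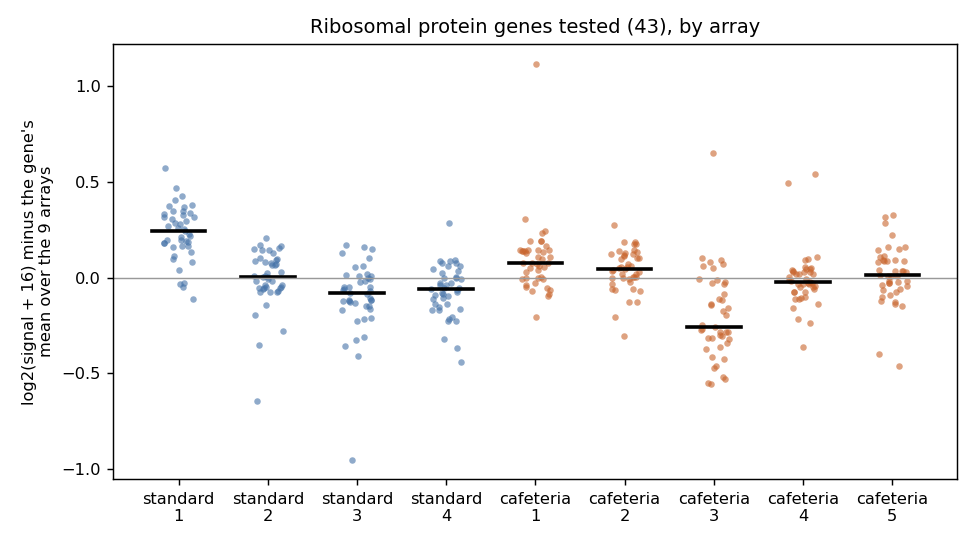
Log2(signal + 16) of each of the 43 tested ribosomal protein genes minus that gene's mean over the 9 arrays (y axis), by array; points are genes and bars medians. The medians are 0.24 on standard replicate 1 and -0.26 on cafeteria replicate 3, and between -0.08 and 0.08 on the other 7 arrays.

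These 2 arrays stood apart in most member genes. Of the 43, 29 (67.4%) had their highest signal on standard replicate 1, where 13.99% of all probe sets tested had theirs. For 24 (55.8%) the lowest signal was on cafeteria replicate 3, as for 18.5% of all probe sets tested. Standard replicate 1 exceeded the mean of the other standard arrays in 39 members (90.7%; 53.2% of all probe sets tested), by a median log2 difference of 0.31. Cafeteria replicate 3 was below the mean of the other cafeteria arrays in 35 members (81.4%; 51.3% of all), with a median of -0.27. Since the arrays were singled out from these values, the counts describe the arrays and were not tested. Most members were far brighter than the median probe set, which read 147 to 167 by array. Probe sets of like brightness were not compared, so the pattern is not shown to be particular to these genes. Of 11 endocrine markers, also mostly bright, 3 were highest on standard replicate 1 and 5 on cafeteria replicate 2.

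The same genes did not stand out on both arrays to the same degree. The difference on standard replicate 1 was largest for Rpl13a (0.74), Rpl37a (0.67) and Rpl21 (0.61). Of these, Rpl37a and Rpl21 were close to the other cafeteria arrays on cafeteria replicate 3, at -0.07 and 0.07. Rpl18, Rpl24, Rpl27 and Rpl41 were the lowest on cafeteria replicate 3, between -0.60 and -0.56, and on standard replicate 1 they had 0.15, 0.11, 0.13 and -0.07. Across the 43 genes, which share arrays and are not independent, the differences on the 2 arrays had a Pearson r of 0.57. Rps27l was above the other arrays of its group on both, by 0.60 and 0.41.

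**Figure D4:**
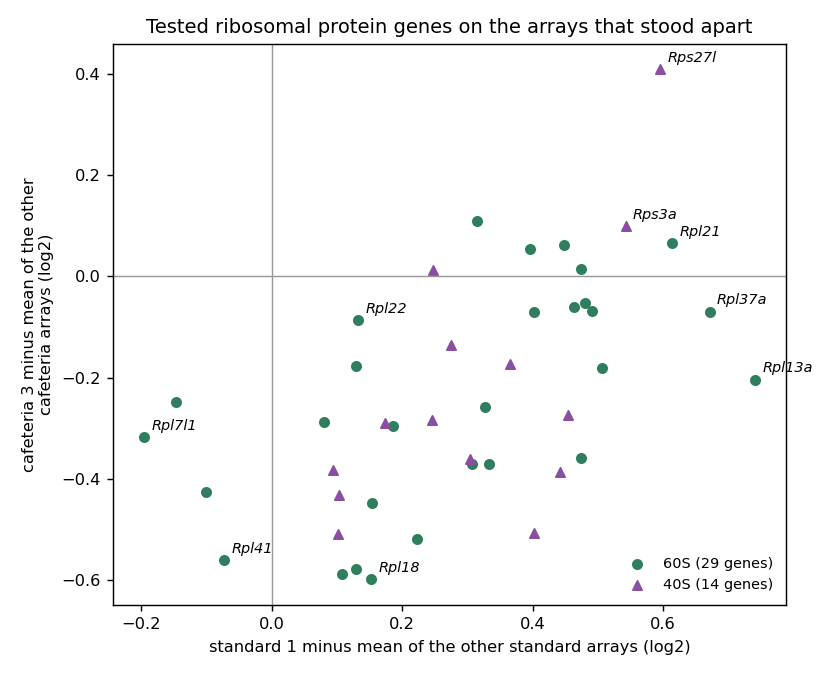
Each point is 1 of the 43 tested ribosomal protein genes (circles 60S, triangles 40S); x axis, log2 signal on standard replicate 1 minus the mean of the other standard arrays; y axis, cafeteria replicate 3 minus the mean of the other cafeteria arrays. Most genes (31) lie to the right of 0 and below 0, and Rps27l is at 0.60 and 0.41.

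Without these 2 arrays the sign of most folds was the other way: 10 of 43 were below 0 and 33 above. The median was 0.09. Both arrays were singled out from these same values, as the highest standard and the lowest cafeteria array. Leaving them out was therefore bound to raise the members' folds as a set. An unadjusted p under 0.05 was found for 6 of the 43 genes, all higher in cafeteria islets. Over all 18625 probe sets tested, 650 were higher and 671 lower at that p (7.09% in either direction). The 6 genes were Rpl5, Rpl7a, Rpl26, Rpl27a, Rps15 and Rps27l, none with an adjusted p under 0.05 by limma. Over the 39 tested members that are not paralogs, the median correlation between 2 genes was 0.58 over the 9 arrays and 0.31 over the 7 others, as a description of genes that share arrays and scaling.

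**Figure D5:**
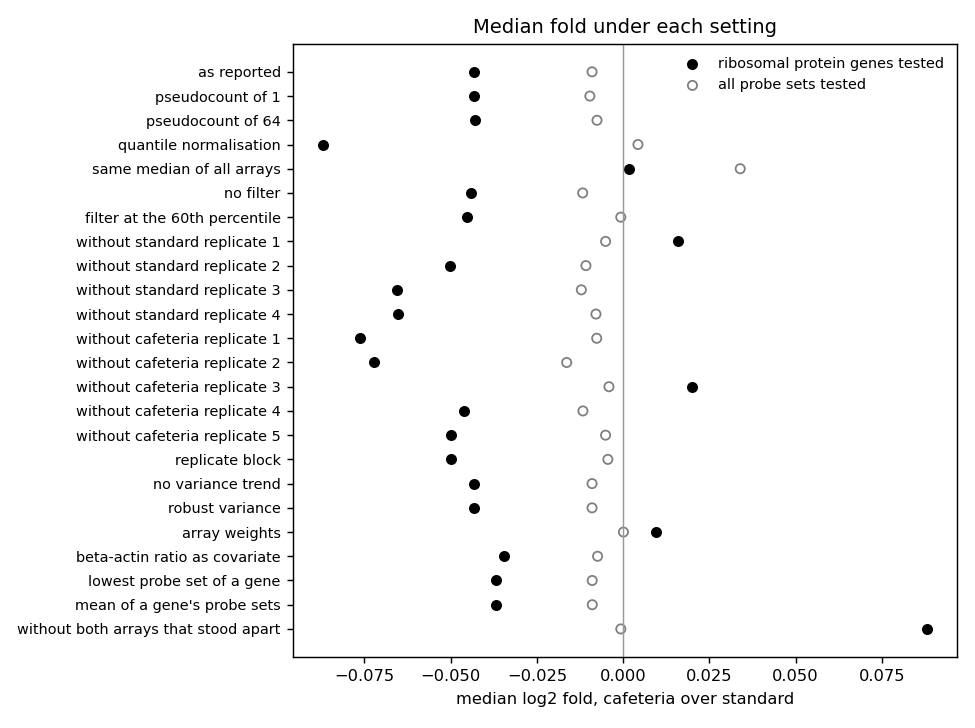
Median log2 fold of cafeteria over standard (x axis) under each setting (y axis), over the ribosomal protein genes tested (filled) and all probe sets tested (open). The members' median is -0.04 as reported, 0.02 with either standard replicate 1 or cafeteria replicate 3 left out, and 0.09 with both left out.

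Measures of RNA quality were set beside the members' level on these 2 arrays. The ratio of the 3′ to the 5′ beta-actin control signal, a sign of RNA integrity, was 4.84 on standard replicate 1 and 5.63 on cafeteria replicate 3, the highest of the 9, against 2.79 to 4.59 elsewhere. Both the array with the highest and the one with the lowest ribosomal protein level thus had high ratios. The same ratio for Gapdh was 1.64 on standard replicate 1 and 1.53 on cafeteria replicate 3, where 3 arrays had a higher Gapdh ratio than cafeteria replicate 3. With the log2 of the beta-actin ratio as a covariate, the median fold of the 43 genes was -0.03 and 28 were below 0. The median deviations over all probe sets on those arrays were 0.02 and -0.01, on a scale that fixes each array's trimmed mean. The summed signal of the translation factors with TOP messages was 121577 on standard replicate 1 and 98393 on cafeteria replicate 3. These rank 1 and 8 among the 9 arrays. A sum follows its brightest genes: of the 16 tested, 7 had their highest signal on standard replicate 1 and 2 on cafeteria replicate 3. The part of RNA integrity in single folds was not tested beyond that covariate.

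Markers of other cell types were set beside these values, and none of them passed (smallest adjusted p by limma 0.839). Leukocyte markers had negative folds in 14 of 14 tested genes (median -0.67), with a summed signal of 9316 to 19751 over standard and 5512 to 8896 over cafeteria arrays. At an unadjusted p under 0.05, 8 of the 14 were lower, as were 2.79% of all probe sets tested. For 10 of the 14 the highest signal was on standard replicate 3. The negative folds include Cd68, which was close to 0 at -0.0039 ± 0.22 (SE). C1qa and C1qb had -0.10 ± 0.17 and -0.14 ± 0.25. Acinar markers were positive in 12 of 13 tested (median 0.46), with overlapping summed signals of 4109 to 10351 and 3181 to 11717. Endothelial markers were below 0 in 6 of 8, fibroblast markers in 4 of 7, duct markers in 3 of 3 and endocrine markers in 5 of 11, with medians of -0.19, -0.05, -0.18 and 0.06. At an unadjusted p under 0.05, 2 of the 13 acinar markers were higher, as were 3.01% of all probe sets tested. At that p 1 of 8 endothelial and 1 of 7 fibroblast markers were lower (2.79% of all), and 0 duct or endocrine markers differed. On standard replicate 1 and cafeteria replicate 3 the summed leukocyte signals were 10107 and 6455, and the summed acinar signals 10351 and 11717. Duct markers summed to 6983 and 3046 there, the highest and the lowest of the 9 arrays, and endocrine markers to 329353 and 242033, which rank 2 and 8. The part of these cells in the ribosomal protein values was not tested, and in bulk RNA fewer cells of a type and less RNA per cell cannot be told apart.

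Related genes were taken from lists. Rack1, a scaffold on the small subunit, is the one component outside the naming rule that was named here. It had a log2 fold of -0.13 ± 0.12 (SE). Its highest signal (13360) was on standard replicate 1 and its lowest (8547) on cafeteria replicate 3, a pair of extremes that only some members had. Of 16 tested translation factors and other genes whose messages carry TOP tracts, 9 were below 0 and 7 above, with a median of -0.05 and none at an unadjusted p under 0.05. Eef1g, an elongation factor subunit, had -0.21 ± 0.10, and Eif4b, an initiation factor that S6 kinase phosphorylates, had -0.22 ± 0.14 (SE; adjusted p = 0.859 by limma). Members with and without a TOP-like start in their window had medians of -0.05 (18 tested genes) and -0.04 (19).

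In the mTOR and S6 kinase list, 9 of 15 tested genes were below 0 (median -0.06), as were 51.9% of all probe sets tested. Rheb, the GTPase that switches mTOR on, had a log2 fold of 0.22 ± 0.09 (SE). It was the only one at an unadjusted p under 0.05, where 3.01% of all probe sets tested were higher. Rps6kb1, the kinase of Rps6, had 0.31 ± 0.15, and Tsc1 and Tsc2, which hold Rheb back, had -0.27 ± 0.13 and -0.26 ± 0.16. These 4, named because they had the smallest unadjusted p of the 15 by limma, had adjusted p-values between 0.839 and 0.859. Mtor itself had 0.07 ± 0.12, its partner Mlst8 -0.16 ± 0.15, Eif4e 0.03 ± 0.13 and Larp1 -0.0034 ± 0.16. Rheb and Rps6kb1 had their highest signal on cafeteria replicate 3, and Tsc1 and Tsc2 theirs on standard replicates 2 and 4. Activity of the pathway was not tested.

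Genes that build ribosomes had a median of 0.11, with 19 of 27 tested above 0. The other 8 were below 0, as were 51.9% of all probe sets tested. At an unadjusted p under 0.05, 3 were higher and 1 lower, beside 3.01% and 2.79% of all probe sets tested. Rrp12, needed for export of the subunits, had 0.81 ± 0.20 (SE), Nop58, of the snoRNA particles, 0.36 ± 0.14, and Tsr1, of small-subunit maturation, 0.23 ± 0.10. Ubtf, which activates ribosomal RNA genes, had -0.43 ± 0.15. None passed (adjusted p = 0.839 by limma for each). Rrp12 had its lowest signal (227) on standard replicate 1 and its highest (618) on cafeteria replicate 3, the arrays that stood apart. Tsr1 was highest (1543) and Ubtf lowest (330) on cafeteria replicate 3, while Nop58 had neither extreme on these arrays. Of the 27 genes, 7 had their highest signal on cafeteria replicate 3, as did 17.1% of all probe sets tested. The part of these arrays in the folds of this list was not tested.

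Mitochondrial ribosomal proteins, which serve the separate ribosome of that organelle, had 55 of 73 tested genes above 0 and a median of 0.06. The other 18 were below 0, as were 51.9% of all probe sets tested. At an unadjusted p under 0.05, 2 of the 73 were higher and 0 lower, beside 3.01% and 2.79% of all probe sets tested. Mrpl3 had a log2 fold of 0.26 ± 0.11 (SE) and Mrps26 0.30 ± 0.13 (adjusted p = 0.839 by limma for both). Their medians by array were 0.05 on standard replicate 1 and -0.03 on cafeteria replicate 3, where the cytosolic genes had 0.24 and -0.26. The difference between the cytosolic and mitochondrial sets was not tested.

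Of the 6 genes with more than 1 probe set, Rpsa had 3, all negative, with log2 folds of -0.12, -0.07 and -0.16. Rps24 had -0.11 and -0.03, and Rpl3 -0.03 and -0.14. For Rpl7 the bright probe set had 0.02 ± 0.11 (SE), and the dim one, with means of 250.0 ± 110.7 (SD, n = 4) and 421 ± 146 (SD, n = 5), had 0.74 ± 0.29 (adjusted p = 0.839 by limma). Ribosomal protein genes have many near-identical copies in the genome, and a probe set can bind their transcripts too. A further 36 probe sets carry a ribosomal protein symbol beside others and were left out for that reason. Of the 48 chosen, 45 have the plain suffix of a probe set designed to 1 transcript and 3 have the suffix for transcripts of 1 gene, so values per gene stay uncertain where copies are transcribed.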

How the data were processed

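Each probe set has 1 deposited linear intensity per array. The authors' program was MAS5, per the submitters' processing notes, with a version not given in the sources used here. After trimming 2% at either end, every array had a mean of 500.0, so no scaling was added. Without 57 control probe sets there were 31042, of which 20826 have 1 symbol, 436 several and 9780 none here. Of the 48 members, 46 matched a current RefSeq gene by identifier, under the same symbol.

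Log2(signal + 16) was modelled on diet alone with limma 3.58.1 under R 4.3.3, using a variance trend. P-values were adjusted by Benjamini-Hochberg across 18625 probe sets, those with a mean at or above the 40th percentile. Single genes were also tested by exact permutation over 126 splits, with no adjustment (Python 3.11.15). The fit was tested on simulated data. Members and lists were chosen with earlier results of these data known. Named genes were the 6 with the smallest p in each direction, the 3 with the largest and smallest SD, paralogs and genes with a fixed role (26 in all). Protein sequences were not used here. Array data have no read depth, and the number of arrays limits precision. Replicate numbers did not pair the arrays.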

Additional observations from a re-analysis of the deposited data

Results flagged for a closer look

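Among the 26 named genes and the arrays' median level, 54 groups were checked for an array whose gap to its nearest neighbour took up most of the group's range, and 2 were found; chance gives about 1 in 20. The Rpl3 signal on standard replicate 1 was 27551, where the next highest standard array read 20177. The Rpl24 signal on standard replicate 4 was 6492, below the next lowest standard array at 7623. The median member levels of 0.24 on standard replicate 1 and -0.26 on cafeteria replicate 3 did not pass this criterion.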

How the results depend on the processing

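No member passed the adjusted threshold by limma in any of the 23 alternatives, of which leaving out standard replicate 1 and cafeteria replicate 3 together was chosen after seeing the data. At an unadjusted p under 0.05 there were 2 members as reported, 1 to 4 with each array left out, 1 with arrays set to the same median, 1 with the replicate block, 1 with no variance trend and 6 without both arrays. The share of all probe sets at that p was 5.8% as reported, 3.82% to 8.99% with each array left out, 6.07% at the same median, 3.12% with the block, 5.61% with no trend and 7.09% without both. The number below 0 was 28, 17 to 35 with each array left out and 10 without both. The median was -0.04, -0.08 to 0.02 with each array left out, -0.09 with quantile normalisation, 0.00 at the same array median (all probe sets: 0.03), 0.01 with array weights and -0.05 with the replicate block. Numbers do not pair the arrays: correlations of same-numbered arrays ran from -0.38 to 0.03, and the block leaves cafeteria replicate 5 without influence. Over all probe sets at an unadjusted p under 0.05, 51.9% were higher as reported and 72.2% at the same array median.

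Of 23 named genes tested, 10 kept their sign in every alternative run. The others turned as follows, in log2 folds. Without both arrays, Rps3 had 0.0020, Rps4y2 0.021, Rps6 0.089, Rpl11 0.017, Rpl13a 0.20, Rpl3 0.16 and Rplp0 0.11. With array weights, Rps4y2 had 0.080, Rps6 0.053, Rpl13a 0.036, Rpl3 0.044 and Rplp0 0.0095. At the same array median, Rps6 had 0.038, Rpl11 0.0016, Rpl13a 0.017 and Rpl3 0.012. With the mean of a gene's probe sets, Rpl14 had 0.22, where a dim second probe set (means of 25.9 and 51.3, not tested) was averaged in. With quantile normalisation, Rpl7a had -0.011. On the lowest probe set of a gene, Rpl7l1 had 0.056. With each array left out the range was -0.096 to 0.042 for Rpl11, -0.011 to 0.16 for Rpl12, -0.15 to 0.16 for Rpl13a, -0.20 to 0.13 for Rpl26l1, -0.079 to 0.086 for Rpl3, -0.035 to 0.18 for Rpl5, -0.0074 to 0.17 for Rpl7a, -0.084 to 0.032 for Rplp0, -0.12 to 0.0047 for Rps3 and -0.058 to 0.062 for Rps6. Rpl14 and Rpl7l1 turned only with a change of probe set, and the causes of the other turns were not tested.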

Other observations

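The array carries a control probe set for 5S ribosomal RNA, the RNA that Rpl5 and Rpl11 bind. Its signal was 354, 267, 240.3 and 348 on standard replicates 1 to 4 and 253, 425, 180.3, 301 and 307 on cafeteria replicates 1 to 5. The lowest value was on cafeteria replicate 3, the array with the lowest ribosomal protein level, and the highest on cafeteria replicate 2.

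Among the dim members that were not tested, Rpl30 read 76.2 ± 19.1 (SD, n = 4) in standard and 57.0 ± 29.2 (SD, n = 5) in cafeteria islets, and Rpl39l1 74.7 ± 49.1 and 94.5 ± 50.9. With Rpl3l these had the largest SD of the 48 genes over the 9 arrays.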
